A study of Mus musculus with 8 samples.

Results

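Somatostatin (Sst) interneurons of the mouse hippocampus were described from single-nuclei RNA sequencing (sn-RNAseq), as 442 of 32041 nuclei. They were selected on measured values. An inhibitory nucleus held at least 3 unique molecular identifiers (UMIs) of Gad1 and Gad2 together and more of them than of Slc17a7 and Slc17a6, and an Sst nucleus also held at least 3 UMIs of Sst. The 442 Sst nuclei were part of 1678 inhibitory nuclei, and the other 1236 are called other inhibitory nuclei below. The study asked how loss of γ-secretase activating protein (GSAP), which modulates the cleavage of amyloid precursor protein (APP), changes the hippocampus. It compared 7-mo-old WT mice (3 mice) with 7-mo-old GSAP -/- mice (GKO, 3 mice), and a 6-mo-old J20;WT mouse with a 6-mo-old J20;GKO mouse, with 1 library per mouse. The labels give the strain as C57BL/6 for all 8 mice, and the study's methods give a C57BL/6N background. The GKO allele is constitutive and came from floxed exons removed with a CMV-Cre driver. J20 mice express human APP with the Swedish and Indiana mutations under the PDGFB promoter, so that each J20 value comes from 1 mouse with that transgene. The study used both males and females, and sex is not in the labels.

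Sst interneurons are GABAergic cells that arise mainly in the medial ganglionic eminence (MGE) of the embryonic brain, as do the Pvalb interneurons. In the hippocampus many of them send axons to the distal dendrites of principal cells, where they meet the input from the entorhinal cortex, and they are known for their early loss in models of amyloid deposition. They release GABA and store the peptide somatostatin in dense core vesicles. Somatostatin acts on receptors coupled to inhibitory G proteins.

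The libraries held 2731 to 5252 kept nuclei and 21020159 to 43310978 UMIs each. There were 70, 63 and 40 Sst nuclei in WT 1 to 3, 30, 58 and 81 in GKO 1 to 3, 40 for J20;WT and 60 for J20;GKO. A median Sst nucleus held 10697 to 18017.5 UMIs, with the highest median in GKO 1 and the next in WT 1. Any pair of libraries shared 2 to 21 cell barcodes, at most 0.549% of the smaller library. Levels are given as CPM, the counts of a gene scaled to a common total of UMIs for each class of nuclei in a mouse (counts per 1e6).

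WT 1, GKO 1 and J20;GKO stood apart from the other libraries in sex-linked genes. Xist, the RNA of the inactive X chromosome, was at 1584, 0 and 0 CPM in WT 1 to 3 and 1466, 0 and 0 CPM in GKO 1 to 3 in Sst nuclei, with 0 CPM in J20;WT and 1695 CPM in J20;GKO. It was high in WT 1, GKO 1 and J20;GKO and at 0 in the other 5 mice. Eif2s3y, on the Y chromosome, was at 0, 246 and 103 CPM in WT 1 to 3 and 1.56, 210.5 and 165 CPM in GKO 1 to 3, with 269.6 CPM in J20;WT and 0 CPM in J20;GKO. It was high in the same 5 mice in which Xist was at 0. The names of the deposited data carry dates, with 1 date for WT 1 and GKO 1, a date of its own for J20;WT and another for the other 5 mice. Among WT and GKO mice, the libraries with the date of WT 1 and those with Xist are the same pair, so file date and sex-linked genes cannot be told apart there.

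WT 1 and GKO 1 also held the most RNA of the choroid plexus, which can reach nuclei as free RNA. The 3 choroid plexus markers Ttr, Enpp2 and Folr1 summed in Sst nuclei to 255, 58.4 and 43.6 CPM in WT 1 to 3 and 428, 17.9 and 69.6 CPM in GKO 1 to 3, with 175 CPM in J20;WT and 90.9 CPM in J20;GKO. Ttr was the most abundant of them, and no marker of the list was at 0 in all 8 mice. Shares of Sst nuclei, the Sst level and counts of genes that differ by genotype are therefore given with and without WT 1 and GKO 1.

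Gsap, the targeted gene, was at 10.4, 10.1 and 12.2 CPM in WT 1 to 3 and 9.35, 16.4 and 12.7 CPM in GKO 1 to 3 in Sst nuclei, with 3.85 CPM in J20;WT and 8.76 CPM in J20;GKO. These values rest on 2 to 13 UMIs per mouse, and WT and GKO mice overlapped. Tags from the 3′ end of a transcript can lie outside the deleted exons, so that Gsap UMIs check no label, and the libraries are compared below as the libraries labelled GKO and WT. For the GKO line, the study reports excision of the targeted exons by genomic PCR and lower Gsap mRNA by quantitative RT-PCR. Gsap had too few UMIs in Sst nuclei to enter the test of genotype.

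Sst itself chose the nuclei, and its level within them is described without a test. Of the 1678 inhibitory nuclei, 1058 held no Sst UMI, 140 held 1 and 38 held 2, just outside the threshold. Just inside it, 17 nuclei held 3 and 8 held 4 UMIs, while 62 held 5 to 9, 100 held 10 to 19, and 255 held 20 or more. Few nuclei thus lay near the threshold, and more than any other inside it held at least 20 UMIs. Nxph1, which the rule did not use, was at 1187 CPM in the nuclei with 2 Sst UMIs, 1334 CPM in those with 3, 1652 CPM in those with 4, 1839 CPM in those with 5 to 9, 1648 CPM in those with 10 to 19 and 1922 CPM in those with 20 or more. Nuclei with no Sst UMI were at 1144 CPM.

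Sst stood at 1732, 3140.4 and 3826 CPM in WT 1 to 3 and 979.7, 3369 and 3912 CPM in GKO 1 to 3 in Sst nuclei, with 4187 CPM in J20;WT and 4225 CPM in J20;GKO. WT 1 and GKO 1 were lowest and the J20 mice highest. Sst nuclei held 61.8 to 80.3% of all Sst UMIs of a library. Outside them, 8.33 to 20% of other inhibitory nuclei and 5.85 to 18.01% of excitatory nuclei held at least 1 Sst UMI, at median depths of 10700.5 to 15392 and 10693 to 16126 UMIs. At least 3 Sst UMIs were found in 0.675 to 2.53% of excitatory nuclei. Of the other genes of the rule, Gad1 was at 205 ± 25.1 CPM in Sst nuclei and 336 ± 39.01 CPM in other inhibitory nuclei and Gad2 at 338 ± 67.1 CPM in Sst nuclei and 395 ± 25.4 CPM in other inhibitory nuclei (SD, n = 8 mice). Slc17a7, the vesicular glutamate transporter of most hippocampal excitatory neurons, was at 36.9 ± 18.5 CPM in Sst nuclei and 43.4 ± 11.9 CPM in other inhibitory nuclei, and Slc17a6 at 1.06 ± 2.44 CPM in Sst nuclei and 1.62 ± 1.79 CPM in other inhibitory nuclei.

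**Figure D1:**
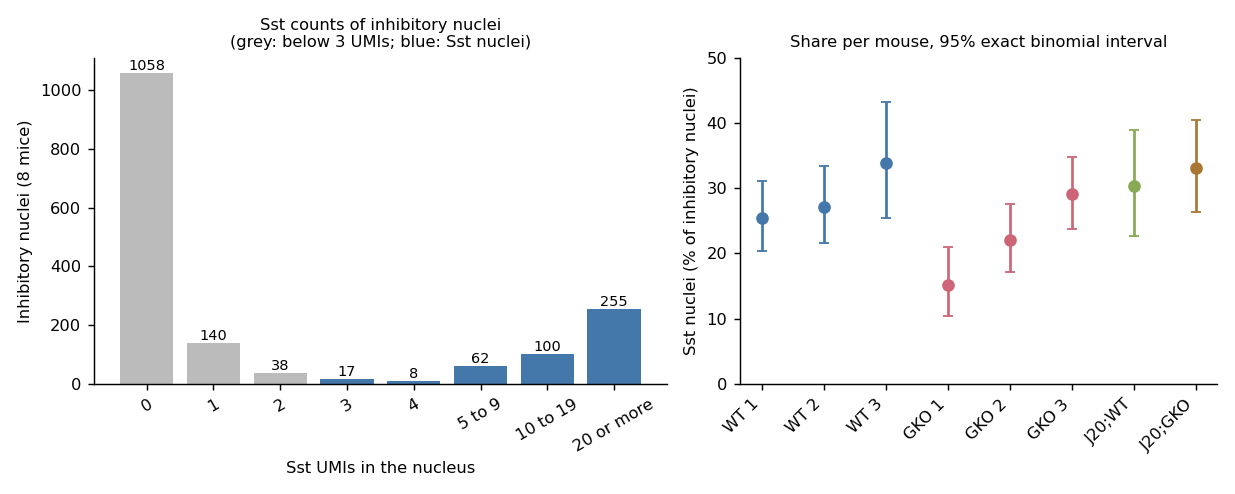
Left, number of inhibitory nuclei of the 8 mice by their Sst UMIs, with the 1236 nuclei below 3 UMIs in grey and the 442 Sst nuclei in blue. Right, Sst nuclei as a percentage of inhibitory nuclei in each mouse with its 95% exact binomial interval, lowest in GKO 1 at 15.2% and highest in WT 3 at 33.9%.

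The Sst gene spans chr16:23889573-23890958 on the minus strand in GENCODE (GRCm38). Its promoter is a textbook target of the cyclic AMP response factor CREB, whose element is TGACGTCA, a run that reads the same on both strands. The stretch below is the 30 bases of the RefSeq promoter table around that element at chr16:23890874-23890903 on the minus strand (GRCm38.p6), shown because the element lies 48 to 41 bases before the start that this table gives for Sst, and capitals mark it. The GENCODE span above reaches further upstream and includes it. TGACGTCA was found in 588 of 32851 promoters in the table (1.79%).
Sst promoter: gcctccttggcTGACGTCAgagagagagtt

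Among the genes tested between Sst nuclei and other inhibitory nuclei that have a promoter in the table, 298 of 7853 held the element (3.79%). Of the genes higher in Sst nuclei, 4 of 65 did (6.15%), namely Cartpt, Daam2, Kctd8 and Ptpru, and of those lower, 3 of 130 (2.31%).

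Cort encodes cortistatin, a peptide related to somatostatin that binds the same receptors. The end of the Sst coding sequence, its last 14 codons at chr16:23889732-23889773 on the minus strand, is set below beside the matching 14 codons of Cort at chr4:149125270-149125311 on the minus strand, which stop 1 codon before the end of the Cort coding sequence (GRCm38, coding exons). They are shown because they encode the part that the peptides share. Capitals mark the bases that are the same in both, 31 of 42 (73.8%).
Sst: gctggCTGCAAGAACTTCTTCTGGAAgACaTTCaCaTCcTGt
Cort: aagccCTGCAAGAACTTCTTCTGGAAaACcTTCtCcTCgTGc

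Genes that the rule did not use were tested between Sst nuclei and other inhibitory nuclei of the same mouse. Of 10334 genes, 100 were higher in Sst nuclei (0.968%) and 183 lower (1.77%), by edgeR with adjusted p below 0.05 and at least a doubling or its inverse (log2 fold change beyond 1 or -1). With nuclei thinned to 3000 UMIs each, 161 of 4802 genes passed, of which 131 were among the 283. With no filter on low counts, 557 passed. At an unadjusted p under 0.05 there were 2507 of the 10334 genes, the count to hold those of the lists below against. The label of the nuclei was checked against Nxph1, a secreted ligand of neurexins and the marker of these cells that the rule left out. Nxph1 was at 1821, 1357 and 1839 CPM in WT 1 to 3 and 2207, 1830.2 and 2116 CPM in GKO 1 to 3 in Sst nuclei, with 2186 CPM in J20;WT and 1495 CPM in J20;GKO. In other inhibitory nuclei it was at 941 to 1395 CPM, so that it was higher in Sst nuclei of all 8 mice, although its change was under the threshold (log2 fold change 0.69, SE 0.06, adjusted p = 9.30e-10). At least 1 Nxph1 UMI was found in 95.5% of Sst nuclei, 67.7% of other inhibitory nuclei and 9.94% of excitatory nuclei, as means over mice.

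Of the 8 genes listed for the MGE lineage, 3 were higher and 1 was lower, with a median log2 fold change of 0.73 against 0.01 over all genes tested. Satb1, a chromatin organizer needed for Sst cells to mature, was at 342 ± 70.9 CPM in Sst nuclei and 98.3 ± 19.8 CPM in other inhibitory nuclei (log2 fold change 1.76, SE 0.07, adjusted p = 1.99e-16). Sox6, a transcription factor of postmitotic MGE cells, was at 271 ± 40.6 CPM in Sst nuclei and 112 ± 24.3 CPM in other inhibitory nuclei (log2 fold change 1.27). Both were higher in Sst nuclei of all 8 mice. Lhx6, which directs MGE cells to their fate, was at 39.6 ± 7.45 CPM in Sst nuclei and 24.5 ± 7.53 CPM in other inhibitory nuclei and stayed under the threshold at 0.73, as did Maf at 0.36.

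Erbb4, the neuregulin receptor found in most interneurons, was the member of the list that was lower. It was at 2152, 1311 and 2742 CPM in WT 1 to 3 and 1201, 2153 and 2394 CPM in GKO 1 to 3 in Sst nuclei and at 4578 to 6679.5 CPM in other inhibitory nuclei (log2 fold change -1.48, SE 0.08, adjusted p = 4.33e-11). Each summed level given for Sst nuclei was below every level of other inhibitory nuclei. By nucleus the classes overlapped, with at least 3 Erbb4 UMIs in 74.1% of Sst nuclei and 85.0% of other inhibitory nuclei, as means over mice.

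Genes of the caudal ganglionic eminence (CGE), where the other large branch of interneurons arises, were low. Of 8 tested, 0 were higher and 6 lower, with a median of -2.40. Adarb2, a member of the RNA-editing enzyme family that marks CGE cells, was at 157, 139 and 197 CPM in WT 1 to 3 and 209, 20.9 and 28.4 CPM in GKO 1 to 3 in Sst nuclei and at 2715 to 4959 CPM in other inhibitory nuclei (log2 fold change -4.76, SE 0.46, adjusted p = 2.51e-04). GKO 2 and GKO 3 were lowest among the Sst nuclei. Vip, the vasoactive peptide of another interneuron class, was at 3.19 ± 3.48 CPM in Sst nuclei and 439 ± 337 CPM in other inhibitory nuclei (log2 fold change -7.22). The transcription factor Prox1 (-1.88), the serotonin receptor Htr3a (-3.28), the cannabinoid receptor Cnr1 (-2.35) and the peptide Cck (-2.45) were the others that passed. Nr2f2 and Npas1 had log2 fold changes of -0.38 and -0.52 and did not pass. Sp8, also listed, had too few UMIs to be tested. At least 1 UMI of Vip was found in 14 of 442 Sst nuclei, and of Htr3a in 11. Genes this low there can enter the test through other inhibitory nuclei alone, which limits the count of lower genes and the median.

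**Figure D2:**
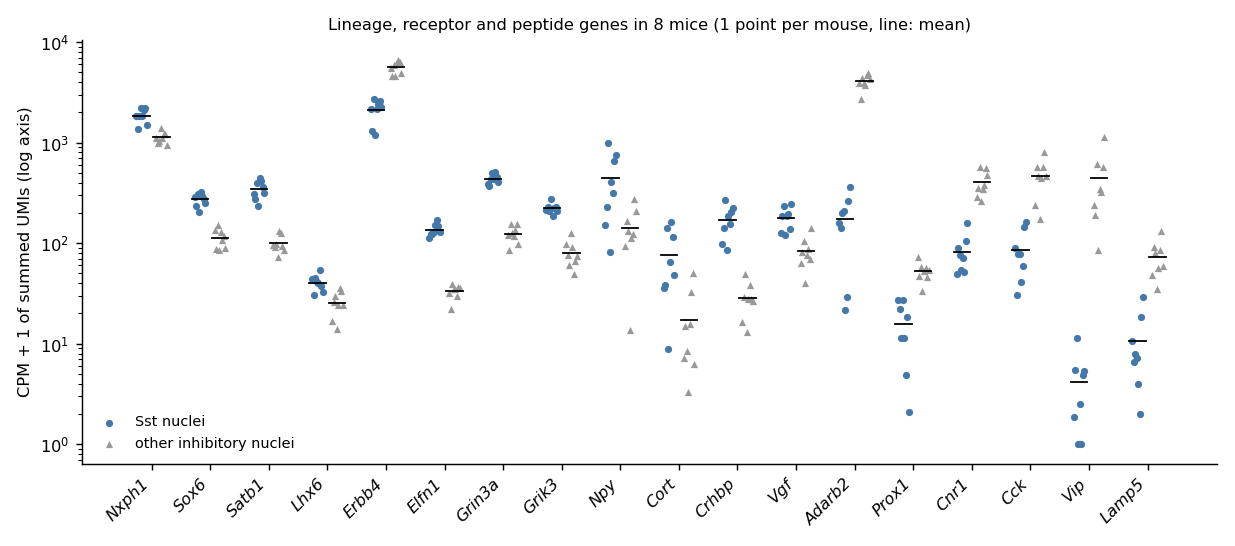
Level of each gene (CPM + 1, log axis) in Sst nuclei (blue circles) and other inhibitory nuclei (grey triangles), 1 point per mouse for 8 mice and a line at the mean. Mean Adarb2 was 171 CPM in Sst nuclei and 4084 CPM in the others, and mean Elfn1 was 135 and 32.2 CPM.

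Genes that mark kinds of Sst cell followed. Of 18 listed, 14 were tested, with 6 higher, 2 lower and a median of 0.53. Elfn1, a synaptic adhesion protein that shapes the input onto these cells, was at 112, 121 and 122 CPM in WT 1 to 3 and 128, 149 and 168 CPM in GKO 1 to 3 in Sst nuclei, with 148 CPM in J20;WT and 129 CPM in J20;GKO. Other inhibitory nuclei had 20.97 to 37.9 CPM, below every Sst value (log2 fold change 2.06, SE 0.10, adjusted p = 1.02e-14). Grin3a, an NMDA receptor subunit, was at 436 ± 50.5 CPM in Sst nuclei and 123 ± 24.5 CPM in other inhibitory nuclei (log2 fold change 1.82). Reln, a secreted glycoprotein, was at 450.4 ± 84.5 CPM in Sst nuclei and 353 ± 119 CPM in other inhibitory nuclei, and its difference did not pass (log2 fold change 0.38, adjusted p = 0.427).

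At 3 UMIs or more, 134 of the 442 Sst nuclei held Elfn1, 271 Grin3a (61.3%) and 238 Reln (53.8%). Of the 134 with Elfn1, 116 also held Grin3a (86.6%) and 106 Reln (79.1%). Nuclei with more UMIs can pass for several genes at once, and the part of depth in this overlap was not tested. Chrna2, a nicotinic receptor subunit used to mark oriens-lacunosum moleculare cells, was at 1.06 ± 1.198 CPM in Sst nuclei and 0.105 ± 0.196 CPM in other inhibitory nuclei and was not tested. Chodl, a marker of long-range Sst cells, reached 3 UMIs in 2 Sst nuclei of 1 mouse. Both also held Npy.

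Peptides that Sst cells can carry beside somatostatin varied more between mice. Npy, neuropeptide Y, was at 149.7, 226 and 979.5 CPM in WT 1 to 3 and 80.99, 405 and 318 CPM in GKO 1 to 3 in Sst nuclei, with 655 CPM in J20;WT and 747 CPM in J20;GKO. WT 3 and the J20 mice were highest and GKO 1 lowest, and WT and GKO mice overlapped. In J20;GKO, 36.3% of excitatory nuclei held at least 1 Npy UMI, at 162 CPM, against 6.78% in J20;WT and 1.12 to 4.31% in WT and GKO mice, and what part of the Npy in Sst nuclei of that mouse came from other cells was not tested. Npy was higher in Sst nuclei than in other inhibitory nuclei of all 8 mice (log2 fold change 1.54, SE 0.29, adjusted p = 0.00984). In the 6 WT and GKO mice alone the log2 fold change was 1.53, and it did not pass (adjusted p = 0.0773). Npy reached 3 UMIs in 135 Sst nuclei, of which 58 also held Elfn1.

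Cort was at 34.8, 37.1 and 141 CPM in WT 1 to 3 and 7.79, 64.2 and 159.8 CPM in GKO 1 to 3 in Sst nuclei, with 114 CPM in J20;WT and 47.1 CPM in J20;GKO. GKO 1 was lowest and the genotypes overlapped. Against other inhibitory nuclei, at 16.4 ± 16.3 CPM, it was higher (log2 fold change 2.20, SE 0.27, adjusted p = 3.41e-04). Crhbp, which binds corticotropin-releasing hormone, was at 169.9 ± 62.5 CPM in Sst nuclei and 27.5 ± 11.4 CPM in other inhibitory nuclei (log2 fold change 2.59). Pnoc, the nociceptin precursor, was at 69.9 ± 30.5 CPM in Sst nuclei and 103 ± 42.7 CPM in other inhibitory nuclei and did not pass (-0.58).

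Several genes of other interneuron classes were lower in Sst nuclei. Of 15 tested peptides and calcium buffers, 3 were higher (Npy, Cort and Crhbp, above) and 6 lower, at a median of -0.87. The 6 were Pvalb (-1.13), Vip, Cck, Lamp5 (-2.87), Ndnf (-2.40) and Kit (-3.08). Lamp5, Ndnf and Kit had at least 1 UMI in 37, 38 and 26 of 442 Sst nuclei. These genes and Vip can enter the test through other inhibitory nuclei alone, which limits the count of lower genes and the median. Pvalb, the buffer of fast-spiking cells, was at 15.7 ± 7.89 CPM in Sst nuclei and 32.5 ± 10.8 CPM in other inhibitory nuclei, and 8 of 442 Sst nuclei held at least 3 Pvalb UMIs. Calb1, another buffer, was at 59.2 ± 24.00 CPM in Sst nuclei and 34.8 ± 5.82 CPM in other inhibitory nuclei and did not pass (log2 fold change 0.68).

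Enzymes and vesicle proteins turn a prohormone into a stored peptide. Of 14 tested, 1 was higher and 1 lower, and 11 were at an unadjusted p under 0.05. The median was 0.23, with 11 above 0, beside 5357 of all 10334 genes. Vgf, a granin of dense core vesicles, was at 124, 183 and 234 CPM in WT 1 to 3 and 118, 184 and 195 CPM in GKO 1 to 3 in Sst nuclei, with 139 CPM in J20;WT and 245 CPM in J20;GKO. In other inhibitory nuclei it was at 82.1 ± 29.9 CPM, lower than in Sst nuclei in all 8 mice (log2 fold change 1.11, SE 0.08, adjusted p = 2.43e-11). Cadps2, which primes dense core vesicles for release, was at 44.1 ± 20.9 CPM in Sst nuclei and 315 ± 107 CPM in other inhibitory nuclei (-2.81). Its relative Cadps had a log2 fold change of -0.33. The convertases Pcsk1 (0.56) and Pcsk2 (-0.70) and the amidating enzyme Pam (0.39) did not pass.

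Of the 5 somatostatin receptors, only Sstr2 had enough UMIs in this comparison. It was at 10.9 ± 4.97 CPM in Sst nuclei and 15.9 ± 4.16 CPM in other inhibitory nuclei (log2 fold change -0.52, adjusted p = 0.139). Sstr1 was at 14.04 ± 6.12 CPM in Sst nuclei and 4.16 ± 1.89 CPM in other inhibitory nuclei, higher in Sst nuclei of 8 of 8 mice, and was not tested. Sstr3 and Sstr4 were at 3.21 and 0.411 CPM in Sst nuclei. Of 11 effectors of these receptors, 0 passed in either direction by edgeR, 7 were at an unadjusted p under 0.05, and the median was -0.16. Among them the potassium channel subunits Kcnj3 and Kcnj6 had log2 fold changes of -0.35 and -0.66.

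None of 5 genes of GABA transport and breakdown passed, with 3 at an unadjusted p under 0.05 and a median of -0.34. The vesicular transporter Slc32a1 was at 208 ± 77.98 CPM in Sst nuclei and 189 ± 68.9 CPM in other inhibitory nuclei (log2 fold change 0.12).

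Of 20 glutamate receptor genes tested, 3 were higher and 0 lower, at a median of 0.26. Grin3a was among them, as was Grik3, a kainate receptor subunit, at 214, 226 and 209 CPM in WT 1 to 3 and 276, 184 and 224 CPM in GKO 1 to 3 in Sst nuclei, with 225 CPM in J20;WT and 207 CPM in J20;GKO. Other inhibitory nuclei had 48.9 to 125 CPM, below every Sst value (log2 fold change 1.46, SE 0.12, adjusted p = 1.40e-06). The presynaptic receptor Grm7 was at 1007 ± 187 CPM in Sst nuclei and 613 ± 222 CPM in other inhibitory nuclei and did not pass (log2 fold change 0.74). None of 23 ion channel genes passed by edgeR, with 12 at an unadjusted p under 0.05 and a median of -0.06. Kcnc2, a fast delayed-rectifier channel, had the log2 fold change 0.70, and the channel subunit Kcnmb2 0.67.

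Of 3 proteases that degrade amyloid β, 0 passed by edgeR, with 0 at an unadjusted p under 0.05 and a median of 0.17. Mme, or neprilysin, was at 16.1 ± 6.75 CPM in Sst nuclei and 15.99 ± 5.81 CPM in other inhibitory nuclei, and Ide at 47.9 ± 13.2 CPM in Sst nuclei and 40.4 ± 4.78 CPM in other inhibitory nuclei. Of 10 genes for APP and its secretases, 0 passed and 1 was at an unadjusted p under 0.05 (App, log2 fold change -0.28), with a median of -0.01. Homer2, a postsynaptic scaffold, was lower among the 6 genes the study names for neurons, at 63.3 ± 18.8 CPM in Sst nuclei and 161 ± 26.3 CPM in other inhibitory nuclei (log2 fold change -1.35, SE 0.09, adjusted p = 7.15e-12). Of 12 mitochondrially encoded and 87 nuclear genes of the respiratory chain, 0 passed, with 5 and 8 at an unadjusted p under 0.05 and medians of 0.16 and 0.06. Of 4 immediate early genes tested, 0 passed and 0 were at an unadjusted p under 0.05, at a median of 0.28.

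Called genes that differed the same way in all 8 mice, at a mean of at least 20 CPM in the higher class, were ranked by fold change. Of these, the 10 with the largest rise are given. Lypd6b, a membrane-anchored protein that binds nicotinic acetylcholine receptors, was at 85.3, 79.8 and 87.1 CPM in WT 1 to 3 and 134, 125 and 141 CPM in GKO 1 to 3 in Sst nuclei, with 131 CPM in J20;WT and 93.1 CPM in J20;GKO. Other inhibitory nuclei had 11.4 to 18.4 CPM, below every Sst value (log2 fold change 2.86, SE 0.12, adjusted p = 3.15e-16). Its relative Lypd6 was at 93.3 ± 20.1 against 13.1 ± 4.02 CPM (log2 fold change 2.71). Klf5, a zinc finger transcription factor, was at 69.7 ± 25.1 against 9.63 ± 3.02 CPM (2.86), and Gna14, a G protein subunit, at 39.9 ± 13.4 against 5.44 ± 2.06 CPM (2.78). Rbp4, which carries retinol, was at 166 ± 101 against 26.3 ± 15.95 CPM (2.63), and Nppc, a natriuretic peptide, at 31.4 ± 13.2 against 6.54 ± 3.49 CPM (2.24). Crhbp, Cort, the galectin Lgals1 (2.36) and the unnamed transcript Gm28175 (2.40) completed the 10.

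By the same ranking the 6 genes with the largest fall were Vip, Tac2 (-4.93), Adarb2, Frem1 (-4.18), Pde11a (-3.73) and Egfr (-3.65). Among them Vip, Tac2, Frem1 and Egfr were at means of 1.12 to 6.88 CPM in Sst nuclei. Genes this low there can enter the test through other inhibitory nuclei alone. Tac2, the neurokinin B precursor, was at 1.12 ± 1.95 against 30.6 ± 16.4 CPM. Over all mice the Sst nuclei held 18 UMIs of Vip and 6 of Tac2, too few for the size of their folds to be read closely. The phosphodiesterase Pde11a was at 12.99 ± 9.28 against 176 ± 21.1 CPM, and the growth factor receptor Egfr at 6.88 ± 7.82 against 95.2 ± 24.8 CPM.

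**Figure D3:**
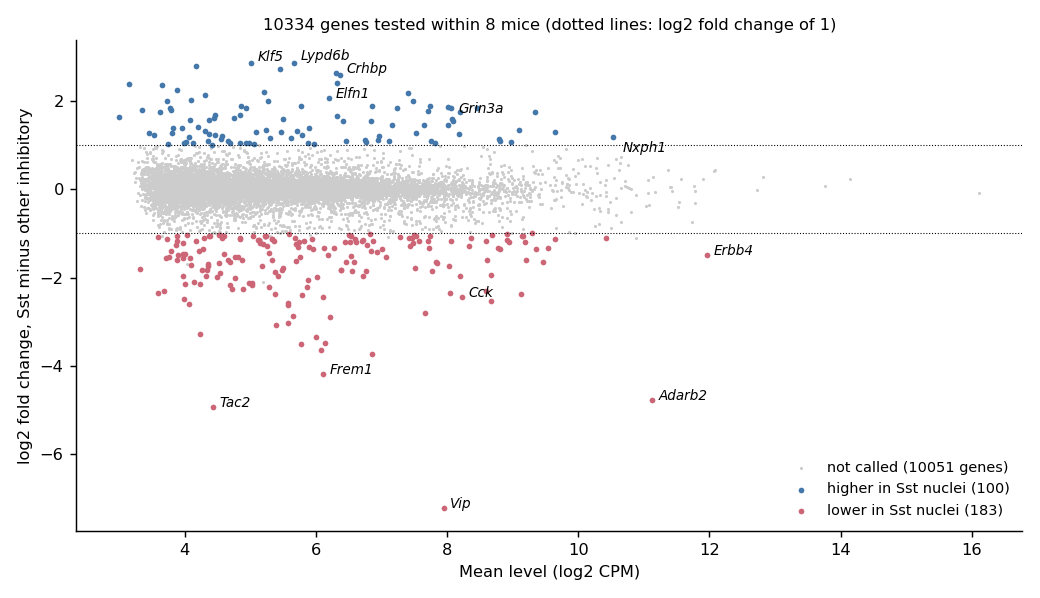
Log2 fold change of Sst nuclei against other inhibitory nuclei within 8 mice (vertical axis) over the mean level in log2 CPM (horizontal axis), 1 point per gene for 10334 genes, with the 100 higher genes in blue, the 183 lower in red and dotted lines at a log2 fold change of 1. Vip at -7.22 was the lowest, and Lypd6b at 2.86 was at the top.

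Markers of other cell types were present in both classes of nuclei. The 6 oligodendrocyte markers summed to 218 ± 60.98 CPM in Sst nuclei and 288 ± 94.8 in other inhibitory nuclei. The 5 astrocyte markers summed to 172 and 213 CPM, led by Slc1a2, and the 5 microglia markers to 83.8 and 84.02 CPM, led by Cx3cr1. The 7 excitatory markers summed to 465 and 591 CPM, mostly Camk2a at 394 CPM in Sst nuclei. The endothelial marker Cldn5 was at 0 in Sst nuclei of all mice. The 3 markers of oligodendrocyte progenitors summed to 17.1 and 84.4 CPM, led by Vcan, which passed as lower in Sst nuclei.

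Sst nuclei were also set against the interneuron class of the same origin. Pvalb nuclei were inhibitory nuclei with at least 3 Pvalb and under 3 Sst UMIs, 92 in all, and 4 mice (WT 1, WT 2, GKO 2 and GKO 3) had 10 or more of them. Median depth was higher in Pvalb nuclei, at 13169.5 to 19506.5 UMIs in these mice against 10697 to 15342 in Sst nuclei, and its part in the differences was not tested. Of 7897 genes tested within these 4 mice, 340 were higher in Sst nuclei (4.31%) and 210 lower (2.66%). With library size alone in place of TMM the split was 370 to 182. With no filter on low counts, which shifts the median log2 fold change of all genes to 0.21, it was 556 to 250.

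Of the 8 genes of the shared MGE origin, 0 were higher and 1, Erbb4, was lower (log2 fold change -1.94), beside 550 of 7897 over all genes. At an unadjusted p under 0.05 there were 3 of the 8 and 1893 of the 7897. The list had a median of -0.06 against 0.01 over all genes. Nxph1 was at 1781 ± 314 CPM in Sst nuclei and 1652 ± 283 CPM in Pvalb nuclei (SD, n = 4; log2 fold change 0.06, adjusted p = 0.865). Of the CGE genes, Nr2f2 (1.38) and Cnr1 (2.37) were higher. Npas1, a transcription factor of forebrain interneurons, was at 29.6, 48.3, 86.6 and 90.2 CPM in Sst nuclei of WT 1, WT 2, GKO 2 and GKO 3 and at 0 in their Pvalb nuclei. Baiap3 and Rorb were also at 0 in the Pvalb nuclei of these mice, with means of 33.04 and 27.7 CPM in Sst nuclei, so that these 3 genes entered the test through Sst nuclei alone. They are among the 550 genes, and no fold is given for them.

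Subtype and peptide genes were compared between these classes. Of 9 peptide and buffer genes tested, 4 were higher, 0 lower and 5 not called, at a median of 1.92. The 4 were Npy, Reln, Cort and Pnoc, which are also listed as subtype genes. Of 11 subtype genes tested, 6 were higher and 0 lower, at a median of 2.07. Reln was at 381, 415, 539 and 446 CPM in Sst nuclei of WT 1, WT 2, GKO 2 and GKO 3. In Pvalb nuclei of these mice it was at 23.1, 3.54, 0 and 52.2 CPM. Npy was at 274 ± 111 CPM in Sst nuclei and 14.1 ± 12.05 CPM in Pvalb nuclei. In the same order Elfn1 was at 138 ± 25.5 and 11.9 ± 5.87 CPM and Pnoc at 74.8 ± 33.6 and 17.9 ± 10.3 CPM. Pvalb nuclei held 191747 to 378634 UMIs per mouse, so these genes rest on few UMIs there. Genes with so few can enter the test through Sst nuclei alone, which limits the counts of higher genes, and no fold is given for these. The classes did not overlap in Reln, Npy or Elfn1. Of 14 genes of peptide processing, 2 were higher and 0 lower, Vgf (log2 fold change 1.67) and the convertase Pcsk1 (1.62), at a median of 0.27. Pcsk1 did not pass with DESeq2 (log2 fold change 1.67, adjusted p = 0.162). Nor did it pass without WT 2 (1.95, adjusted p = 0.0553), GKO 2 (1.07, adjusted p = 0.181) or GKO 3 (1.69, adjusted p = 0.111).

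Among 19 glutamate receptor genes, 3 were higher and 0 lower, at a median of 0.33. Grik1, a kainate receptor subunit, was at 1455, 1124, 1872 and 1787 CPM in Sst nuclei and at 509, 308, 301 and 287 CPM in Pvalb nuclei of WT 1, WT 2, GKO 2 and GKO 3 (log2 fold change 2.11, SE 0.19, adjusted p = 1.79e-07). The lowest Sst value was above the highest Pvalb value. Grm7 was at 966 ± 155 CPM in Sst nuclei and 251 ± 54.5 CPM in Pvalb nuclei (1.90) and Grin3a at 423 ± 62.1 CPM in Sst nuclei and 55.8 ± 28.3 CPM in Pvalb nuclei (2.97).

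Ion channel genes split, with 4 of 20 higher and 4 lower at a median of -0.06. The 4 lower genes encode potassium channels known from fast-spiking cells. Kcnc1, a fast delayed rectifier, was at 238, 308, 278 and 281 CPM in Sst nuclei and at 657, 1006, 1107 and 714 CPM in Pvalb nuclei of WT 1, WT 2, GKO 2 and GKO 3 (log2 fold change -1.67, SE 0.16, adjusted p = 1.79e-07). Kcna1 was at 78.6 ± 11.6 CPM in Sst nuclei and 259 ± 35.4 CPM in Pvalb nuclei (-1.76), and Kcna2 was at 52.3 ± 17.4 CPM in Sst nuclei and 104 ± 39.8 CPM in Pvalb nuclei (-1.03). Kcna2 fell under the threshold without WT 1 (-0.82), without possible doublets (-0.84), with library size alone (-0.98) and with no filter (-0.96). The 4 higher genes were the T-type calcium channel Cacna1g, the sodium channel Scn3a (1.85), the R-type calcium channel Cacna1e (1.65) and the A-type potassium channel Kcnd3 (1.42). Cacna1g was at 49.4 ± 7.87 CPM in Sst nuclei and 5.94 ± 4.53 CPM in Pvalb nuclei, on few UMIs there. It can enter the test through Sst nuclei alone, so no fold is given for it. Among the receptor effectors, the adenylyl cyclase Adcy2 was higher and Kcnj9 lower (-1.33), the latter not with DESeq2 (log2 fold change -1.33, adjusted p = 0.0506). Of the 4 genes of GABA handling tested, 0 passed by edgeR and 2 were at an unadjusted p under 0.05, against 1893 of all 7897 genes.

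The 6 lower genes named by the rule used above, over these 4 mice, were Syt2, Adamtsl5, Pde5a, Col16a1, Gm26633 and the GABA-A receptor subunit Gabrd. Syt2, a fast calcium sensor of Pvalb terminals, was at 5.46 ± 3.38 CPM in Sst nuclei and 256 ± 15.3 CPM in Pvalb nuclei. Means of the 6 in Sst nuclei were 4.83 to 15.8 CPM. Genes this low there can enter the test through Pvalb nuclei alone, so their folds are not given or ranked. Rises are not ranked either, because genes with few UMIs in Pvalb nuclei entered through Sst nuclei. Gm28175 was at 178 ± 41.8 against 2.62 ± 3.03 CPM in Sst and Pvalb nuclei, the protease inhibitor Serpine2 at 99.4 ± 9.84 against 2.97 ± 4.37 CPM and Gm28928 at 179 ± 91.4 against 8.14 ± 6.96 CPM. Of the 5 astrocyte markers, the 2 tested were both higher in Sst nuclei (Slc1a2, log2 fold change 2.11), and Ttr of the choroid plexus was lower. Slc1a2 was at 100.1 ± 36.02 CPM in Sst nuclei and 22.5 ± 8.46 CPM in Pvalb nuclei. The 4 oligodendrocyte markers tested were all below 0, at a median of -0.70, with 0 called and 2 at an unadjusted p under 0.05. Of the mitochondrially encoded genes, 11 of 11 were above 0 at a median of 0.42 (0 called, 7 at an unadjusted p under 0.05), and of 75 nuclear genes of the respiratory chain 60 were below 0 at a median of -0.24 (0 called, 19 at an unadjusted p under 0.05). Over all 7897 genes, 3987 were above 0 and 3910 below. The part of RNA from other cells and of RNA quality in the differences between these classes was not tested.

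**Figure D4:**
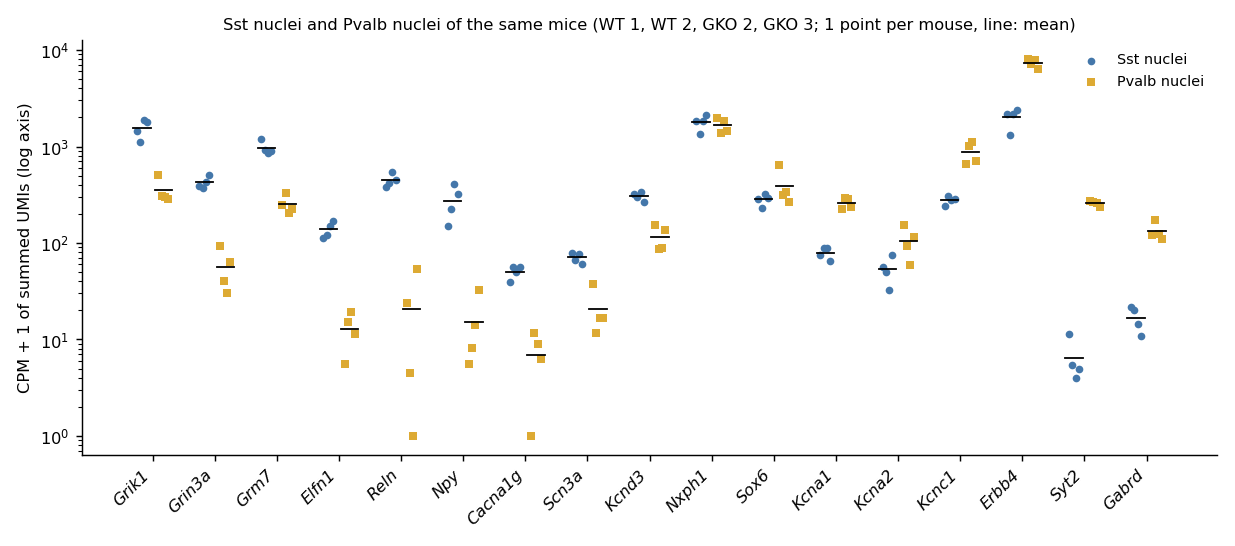
Level of each gene (CPM + 1, log axis) in Sst nuclei (blue circles) and Pvalb nuclei (yellow squares) of WT 1, WT 2, GKO 2 and GKO 3, 1 point per mouse and a line at the mean. Mean Kcnc1 was 276 CPM in Sst nuclei and 871 CPM in Pvalb nuclei, and mean Grik1 was 1559 and 351 CPM.

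The share of Sst nuclei was compared between the libraries labelled GKO and WT. Sst nuclei made up 25.5, 27.2 and 33.9% in WT 1 to 3 and 15.2, 22.1 and 29.03% in GKO 1 to 3 of inhibitory nuclei. GKO 1 was lowest and WT 3 highest, and the genotypes overlapped. The mean was 28.8% ± 4.47 in WT and 22.1% ± 6.94 in GKO mice (SD, n = 3 each), a difference of -6.76 points (2-sided exact permutation p = 0.3, with 0.1 the smallest that 3 against 3 mice allow). Without WT 1 and GKO 1 it was -4.98 points, and without GKO 1 alone -3.29 points. It was -10.2 points without GKO 3 and -4.23 points without WT 3. With nuclei thinned to 3000 UMIs it was -10.4 points (19.6% in WT and 9.19% in GKO mice, exact permutation p = 0.2). It was then -4.77 points without WT 3 and -6.59 points without GKO 1. The minimums of the rule were applied again to the thinned counts, which made the rule stricter. This left 35 Sst nuclei of 204 inhibitory nuclei in WT and 27 of 255 in GKO mice, with 1 of 62 in GKO 1. The thinned difference was -10.9 points without WT 1 and GKO 1, -14.7 points without WT 1 and -13.8 points without GKO 3. Of all kept nuclei, Sst nuclei were 1.35% ± 0.0178 in WT and 1.25% ± 0.455 in GKO mice (exact permutation p = 0.7). That difference of -0.102 points was -0.336 without GKO 3 and turned to 0.119 without GKO 1 and 0.1098 without WT 1 and GKO 1. Inhibitory nuclei made up 4.76% ± 0.666 of kept nuclei in WT and 5.601% ± 0.295 in GKO mice (exact permutation p = 0.1), a difference of 0.844 points that was 0.464 without WT 3 and 1.22 without WT 1 and GKO 1.

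The Sst level was compared over all inhibitory nuclei, where the minimum of 3 UMIs does not bound it. It was 465, 915 and 1334 CPM in WT 1 to 3 and 175, 702 and 1184 CPM in GKO 1 to 3. GKO 1 was lowest, WT 1 next, and the genotypes overlapped. The mean log2 CPM was 9.69 ± 0.77 in WT and 9.04 ± 1.42 in GKO mice, a difference of -0.65 (exact permutation p = 0.6, n = 3 each). Without GKO 1 the difference turned to 0.14, and without WT 1 and GKO 1 it was -0.28. It was -1.24 without GKO 3, -1.07 without WT 1 and -0.31 without WT 3. Fewer Sst cells and less Sst RNA per cell cannot be told apart in this sum.

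Genes were tested between the 3 GKO and 3 WT mice within Sst nuclei. Of 9385 genes, 0 passed edgeR with adjusted p below 0.05 and a log2 fold change beyond 0.3 or -0.3 (0%), and 139 were at an unadjusted p under 0.05. DESeq2 called 1 gene, Ncapd3, and so did edgeR with the file date as a term and edgeR without WT 1. Without GKO 1 the 1 gene called was Adarb2. Without both WT 1 and GKO 1, 3 genes were called, Ncapd3, Ntng1 and Adarb2. In WT 3 a single nucleus held 82.2% of the Ntng1 UMIs of Sst nuclei. Without the nucleus with the most, Ntng1 was at 107 and 32.3 CPM in WT 2 and WT 3 and 36.6 and 47.2 CPM in GKO 2 and GKO 3, and the genotypes overlapped. With no filter on low counts there were 5, Ncapd3, Gm13842, Gm44284, 4930470O06Rik and Otx2os1. The genes of these other fits are named after their values were seen.

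Ncapd3, Htr2a and Adam12 had the smallest p-values and are named for that. Lack of overlap between 3 WT and 3 GKO mice follows in part from this choice and is no added support. Ncapd3, a condensin subunit, was at 127, 351 and 253 CPM in WT 1 to 3 and 59.2, 77.6 and 73.5 CPM in GKO 1 to 3 in Sst nuclei, with 53.9 CPM in J20;WT and 116 CPM in J20;GKO. The GKO mice were below the WT mice without overlap (log2 fold change -1.75, SE 0.32, unadjusted p = 2.95e-04, adjusted p = 1.000). A single nucleus held 19.9, 73.1 and 53.8% of the Ncapd3 UMIs of WT 1 to 3 and 13.2, 7.69 and 8% of those of GKO 1 to 3. With that nucleus left out of each mouse, the levels were 105, 98.2 and 122 CPM in WT 1 to 3 and 55.3, 73.3 and 68.7 CPM in GKO 1 to 3, still without overlap. The log2 fold change was -1.76 with DESeq2 (adjusted p = 0.00395) and -1.71 with the file date (adjusted p = 0.0385).

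Htr2a, a serotonin receptor, was at 30.5, 28.1 and 36.6 CPM in WT 1 to 3 and 70.1, 58.2 and 63.7 CPM in GKO 1 to 3, higher in GKO mice without overlap (log2 fold change 1.06, SE 0.23, unadjusted p = 6.28e-04, adjusted p = 1.000). Adam12, a metalloprotease, was at 8.701, 22.5 and 15.7 CPM in WT 1 to 3 and 35.8, 35.8 and 50.01 CPM in GKO 1 to 3, also higher in GKO mice without overlap (log2 fold change 1.45, SE 0.35, unadjusted p = 0.00115, adjusted p = 1.000). Adam12 rested on 10, 20 and 9 UMIs in WT 1 to 3 and 23, 24 and 51 in GKO 1 to 3. In the J20 mice Htr2a was at 21.2 CPM in J20;WT and 20.8 CPM in J20;GKO, close to each other. Adam12 was at 11.6 CPM in J20;WT and 27.4 CPM in J20;GKO, on 6 and 25 UMIs. Adarb2, called where GKO 1 was left out, had 90.3% of its WT 3 UMIs in a single nucleus. Without the nucleus with the most it was at 139, 78.5 and 19.7 CPM in WT 1 to 3 and 143, 15.3 and 14.1 CPM in GKO 1 to 3. With all nuclei its log2 fold change was -0.88 over 3 against 3 mice and -2.70 without GKO 1.

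**Figure D5:**
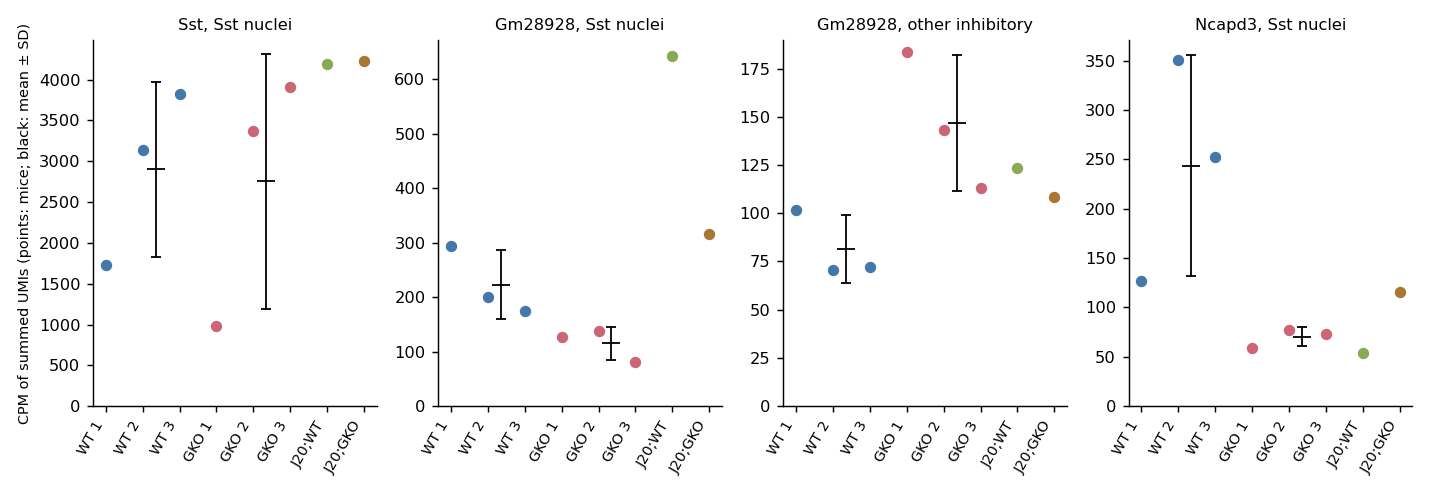
CPM per mouse of Sst and Gm28928 in Sst nuclei, Gm28928 in other inhibitory nuclei and Ncapd3 in Sst nuclei, with 1 point per mouse coloured by group and black marks for the mean ± SD of the 3 WT and 3 GKO mice. Gm28928 in Sst nuclei was at 174 to 294 CPM in WT and 80.4 to 139 CPM in GKO mice.

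Genes with a role in Alzheimer's disease had small log2 fold changes between GKO and WT Sst nuclei over 3 against 3 mice, none of them past the threshold. Pld3, a lysosomal protein, was at 58.3, 62.9 and 105 CPM in WT 1 to 3 and 43.6, 55.2 and 80.4 CPM in GKO 1 to 3 (-0.25). Sorl1, a sorting receptor of APP, was at 79.2, 67.4 and 47.1 CPM in WT 1 to 3 and 107, 41.8 and 40.2 CPM in GKO 1 to 3 (-0.03), and Bin1, which bends membranes, had -0.02 and Fermt2 0.03. WT and GKO mice overlapped in these genes. Homer1 (0.06), Homer2 (-0.17) and Nxph1 (0.33) did not pass either. Leaving out 1 mouse could turn the direction of each of the 6 genes that the study names. Sorl1 then ranged from -0.70 to 0.24, Pld3 from -0.53 to 0.0161 and Homer1 from -0.27 to 0.66. App was at 512, 552 and 546 CPM in WT 1 to 3 and 512, 434 and 479 CPM in GKO 1 to 3 (-0.13).

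The lists had 0 calls each in this comparison, against a median over all genes of 0.01. The median was 0.03 over 9 genes of APP processing, -0.03 over 11 mitochondrially encoded genes and -0.16 over 85 nuclear genes of the respiratory chain, of which 59 were below 0. It was 0.20 over 20 glutamate receptor genes, of which 18 were above 0, and 0.01 over 22 ion channel genes. Over all 9385 genes, 4870 were above 0 and 4515 below. In the same comparison the 4 astrocyte and 2 microglia markers tested were all below 0, at medians of -0.38 and -0.29, the excitatory markers Camk2a and Prox1 were at -0.09 and -0.64, and the 6 oligodendrocyte and 2 choroid plexus markers were at medians of 0.01 and 0.36. Their part in the shifts of the lists was not tested. Peptide processing had -0.18 over 14 genes, the Sst subtype genes 0.30 over 12, and the MGE and CGE lineages 0.22 and -0.18 over 8 and 6. GABA handling had -0.31 over 5 genes, receptor effectors 0.07 over 11, amyloid β degradation -0.16 over 3 and the immediate early genes 0.47 over 2. At an unadjusted p under 0.05 these lists held 3 genes, 1 nuclear respiratory chain gene, 1 oligodendrocyte marker (log2 fold change -0.87) and 1 subtype gene (Reln, log2 fold change 0.53, adjusted p = 1.000).

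Whether the genotype difference itself differed between Sst nuclei and other inhibitory nuclei was tested as an interaction of class and genotype. Of 10406 genes, 1 passed (0.00961%), Gm28928, and 394 were at an unadjusted p under 0.05. Gm28928 is a long intergenic RNA of unknown role at chr1:124505757-124846039 on the minus strand (GRCm38), where it overlaps Gm28299 and Gm37717 on the same strand, so that its count is uncertain. It was at 294, 201 and 174 CPM in WT 1 to 3 and 126, 139 and 80.4 CPM in GKO 1 to 3 in Sst nuclei and at 102, 70.6 and 72.2 CPM in WT 1 to 3 and 184, 143 and 113 CPM in GKO 1 to 3 in other inhibitory nuclei. In Sst nuclei the GKO mice were below the WT mice, in other inhibitory nuclei they were above them, and neither pair of groups overlapped. The difference between both effects was -1.81 on the log2 scale (SE 0.17, edgeR adjusted p = 2.10e-05).

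A single nucleus held 22.6 to 59.3% of the Gm28928 UMIs of Sst nuclei in these mice. Without it the levels were 215, 155 and 95.1 CPM in WT 1 to 3 and 53.97, 109 and 44.6 CPM in GKO 1 to 3, and the groups overlapped. Other inhibitory nuclei without their top nucleus were at 86.7, 54.7 and 32.9 CPM in WT 1 to 3. They were at 149.8, 125.1 and 91.4 CPM in GKO 1 to 3, still above WT without overlap. The interaction was not tested without these nuclei. Excitatory nuclei had higher levels, at 329.8 to 859 CPM, and the part of free RNA was not tested. The count of genes in the interaction was 2 without WT 1, 4 without WT 2, 4 without GKO 1 and 2 without GKO 3, and Gm28928 was among them each time. Without both WT 1 and GKO 1 it was 4, with Ntng1, Cpne4 and Adarb2 beside Gm28928, and the WT 3 levels of Ntng1 and Adarb2 among them rest on 1 nucleus each, as given above.

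The J20 pair had 1 mouse per genotype and no test was made. Intervals are exact 95% intervals, binomial for shares and Poisson for counts, and cover counting error only. Sst nuclei were 30.3% of inhibitory nuclei in J20;WT (22.6 to 38.9%) and 33.1% in J20;GKO (26.3 to 40.5%). The intervals of the mice overlapped for the share. Sst was at 4187 CPM in J20;WT and 4225 CPM in J20;GKO, with no interval given because it selected the nuclei. Over the 3013 genes that reached 100 UMIs summed across both mice, the log2 of J20;GKO over J20;WT lay between -0.61 and 0.69 for all but the lowest and highest 5%. It was over 1 in size for 88 genes (2.92%), while pairs of mice of the same genotype gave 0.7303 to 9.65%.

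The highest ratios were those of Xist and its antisense Tsix, both at 0 in J20;WT, and of Meis2, and the lowest were those of Eif2s3y, Gm45341 and Ntng1. Meis2, a transcription factor, was at 9.63 CPM in J20;WT and 241 CPM in J20;GKO. It ranged from 10.5 to 394 CPM in WT and GKO mice, so that it varied among them at least as much as within the pair. Ntng1, an axon guidance protein, was at 159.8 and 43.8 CPM (log2 ratio -1.86), and Gm45341 at 324 and 84.4 CPM (-1.93).

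The 9 mitochondrially encoded genes over the minimum were all lower in J20;GKO, at a median log2 ratio of -1.18 against -0.01 over all 3013. The 13 genes of that list summed to 7359 CPM in J20;WT and 3229 CPM in J20;GKO. WT and GKO mice lay between 2492 and 4924 CPM, so that J20;WT was above them and J20;GKO within their range. Other inhibitory nuclei gave 6054 and 2784 CPM in the same order. J20;WT is alone in its file date, and the J20 mice also differ in sex-linked genes (Xist at 0 CPM in J20;WT and 1695 CPM in J20;GKO). Neither can be told apart from genotype in this pair. The 27 nuclear genes of the respiratory chain had a median of -0.12.

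Gm28928 was at 643 CPM in J20;WT (95% interval 576 to 716) and 315 CPM in J20;GKO (280.1 to 354), lower in J20;GKO. In other inhibitory nuclei it was at 123 CPM in J20;WT and 108 CPM in J20;GKO, without the higher level that GKO mice had there. Cort was at 114 CPM in J20;WT (95% interval 86.5 to 147) and 47.1 CPM in J20;GKO (34.1 to 63.4), also lower. Nxph1 was at 2186 CPM in J20;WT (95% interval 2061 to 2317) and 1495 CPM in J20;GKO (1417 to 1577), and the 5 MGE genes over the minimum were all lower in J20;GKO, at a median of -0.21. Glutamate receptor genes were lower for 15 of 18, at a median of -0.16, and the 3 CGE genes were all higher, at a median of 0.45. Among the 3, Adarb2 was at 262 CPM in J20;WT and 358 CPM in J20;GKO, where a single nucleus held 94.2% of its UMIs. Without the nucleus with the most in each mouse, Adarb2 was at 107.9 CPM in J20;WT and 21.2 CPM in J20;GKO, so its direction turned. Over all genes 1550 of 3013 were lower. Npy was at 655 CPM in J20;WT (95% interval 587 to 728) and 747 CPM in J20;GKO (692 to 805), with intervals that overlapped. Without the nucleus with the most UMIs of the gene in each mouse, J20;WT and J20;GKO were at 488 and 188 CPM for Gm28928, 62.9 and 24.5 for Cort, 425 and 517 for Npy and 96.7 and 35.7 for Ntng1. Cort had UMIs in 9 nuclei of each mouse, and the intervals do not include this spread between nuclei. App was at 713 CPM in J20;WT (95% interval 642 to 789) and 624 CPM in J20;GKO (574 to 678), and both J20 mice were above the 6 other mice.

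Among the genes that the study names, Homer1 was at 73.2 CPM in J20;WT (95% interval 51.8 to 100.4) and 119 CPM in J20;GKO (98.04 to 144), and Homer2 was at 42.4 CPM in J20;WT (95% interval 26.6 to 64.1) and 82.2 CPM in J20;GKO (64.6 to 103). Both were higher in J20;GKO, Homer1 with intervals that overlapped slightly, and both J20 values of each gene lay within the range of WT and GKO mice. Bin1 was at 92.4 CPM in J20;WT (95% interval 68.2 to 123) and 81.1 CPM in J20;GKO (63.7 to 102), Sorl1 at 53.9 CPM in J20;WT (95% interval 35.8 to 77.9) and 76.7 CPM in J20;GKO (59.8 to 96.9), Fermt2 at 57.8 CPM in J20;WT (95% interval 38.98 to 82.5) and 85.4 CPM in J20;GKO (67.5 to 107) and Pld3 at 77.03 CPM in J20;WT (95% interval 55.03 to 105) and 77.8 CPM in J20;GKO (60.7 to 98.1), with intervals that overlapped for each. The 4 of these 6 genes with at least 100 UMIs had a median log2 ratio of 0.28.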

How the data were processed

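The deposited matrices hold raw UMI counts of 30211 genes from 8 single-nuclei libraries, made by the authors with Cell Ranger on mm10 and analysed in Seurat 3.0 under R 3.6.2, per the submitters' notes. Nuclei with at most 5% mitochondrial UMIs and 200 to 7500 genes were kept. The kept nuclei held 43310978, 31589339, 21977855, 31395024, 34568065, 37565448, 21020159 and 22460995 UMIs in WT 1 to 3, GKO 1 to 3, J20;WT and J20;GKO. Sst nuclei and the gene lists were chosen with earlier results of these data known. No doublet caller was run, and an alternative left out inhibitory nuclei with 3 or more Slc17a7 and Slc17a6 UMIs or 10 or more UMIs of oligodendrocyte, astrocyte or microglia markers.

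Counts were summed per mouse and class and tested with edgeR 4.0.16 (limma 3.58.1, R 4.3.3; TMM, filterByExpr, robust quasi-likelihood fits, mouse as a block where both classes of a mouse entered), with Benjamini-Hochberg adjustment over all genes tested. The genes of the rule were left out of the tests between classes, and Pvalb was left out of that against Pvalb nuclei. The test of genotype within Sst nuclei included 4 of them, whose results are not given because the rule selected on them. Shares and the Sst level were tested by exact permutation over mice. The code was tested on simulated data. Alternatives were library size alone, no filter, DESeq2 1.42.0, Sst minimum of 2 or 5 UMIs, doublets left out, nuclei thinned to 3000 UMIs (seed 1), the 6 WT and GKO mice, a replicate block, a file date term and each mouse left out. Counting used Python 3.11.15, numpy 2.4.6, scipy 1.17.1, pandas 2.3.3 and matplotlib 3.10.9.

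Genes named are those of the role lists, the 10 highest and 6 lowest called genes that differed the same way in every mouse at a mean of at least 20 CPM, the 3 smallest p-values of the genotype test, every gene called in the interaction, and for the J20 pair the 3 highest and 3 lowest ratios (0.5 added to each count) among genes with 100 UMIs. Gene positions are from GENCODE and promoters from RefSeq (GRCm38.p6). Some genes of the lists are counted and not reported by name here, amino acid sequences are left out, and the J20 mice enter no test of genotype.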

Additional observations from a re-analysis of the deposited data

Results flagged for a closer look

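Gm28928 stands here because its difference between GKO and WT mice was itself tested between Sst nuclei and other inhibitory nuclei, and the difference between both effects was -1.81 on the log2 scale. It was at 294, 201 and 174 CPM in WT 1 to 3 and 126, 139 and 80.4 CPM in GKO 1 to 3 in Sst nuclei, and at 102, 70.6 and 72.2 CPM in WT 1 to 3 and 184, 143 and 113 CPM in GKO 1 to 3 in other inhibitory nuclei. With the nucleus that held the most Gm28928 UMIs left out of each mouse, the levels in Sst nuclei were 215, 155 and 95.1 CPM in WT 1 to 3 and 53.97, 109 and 44.6 CPM in GKO 1 to 3, and the genotypes overlapped. In other inhibitory nuclei they were then 86.7, 54.7 and 32.9 CPM in WT 1 to 3 and 149.8, 125.1 and 91.4 CPM in GKO 1 to 3, without overlap. The cause was not tested.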

How the results depend on the processing

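Of 75 comparisons of a count, share or level with its value under an alternative, 60 were labelled the same, 14 moved and 1 turned. With the named genes there were 1230, of which 1179 were the same. A count was the same within a set ratio of its main value. A share or level was the same if its sign held and its exact permutation p stayed on the same side of 0.05. That p cannot fall below 0.1 here, so only a change of sign could alter this label, and size was not judged. A gene was the same if its sign and its call held. Between Sst nuclei and other inhibitory nuclei 283 genes passed, 557 with no filter, 161 when thinned (4802 tested, fewer genes), and 264 to 317 with 1 mouse left out. Against Pvalb nuclei 550 passed, 806 with no filter, 392 with DESeq2, and 464 to 614 with 1 mouse left out. The 4 mice of that comparison are all WT or GKO mice, so leaving out the J20 mice changed nothing. Between GKO and WT mice the count of 0 became 5 with no filter, 1 with DESeq2, 1 with the file date, and 0 to 1 with 1 mouse left out. The interaction count of 1 became 21 with no filter and 1 to 4 with 1 mouse left out. Leaving out WT 1 and GKO 1 together, an alternative chosen after seeing the data, gave 3 genes between genotypes and 4 in the interaction. Gm28928 passed in every fit, at -2.14 to -1.69. The share of Sst nuclei differed by -10.4 points when thinned, where few Sst nuclei stayed over the minimum. With 1 mouse left out the share differed by -10.2 to -3.29 points and the Sst level in inhibitory nuclei by -1.24 to 0.14. Paired by replicate number (a replicate block), the share differed by -6.76 points (exact permutation p = 0.25, the smallest possible) and the Sst level by -0.65 (exact permutation p = 0.25), and 0 genes passed. The correlations of WT and GKO mice of the same number were 0.43, -0.05 and 0.38, and WT 3 with GKO 2 gave 0.30. They cannot show whether replicate numbers pair mice, because WT 1 and GKO 1 also share a file date and high Xist. Genes near a log2 fold change of 0 between genotypes turned. With 1 mouse left out Pld3 ranged from -0.53 to 0.0161, Sorl1 from -0.70 to 0.24, Bin1 from -0.14 to 0.15, Fermt2 from -0.10 to 0.23, Homer1 from -0.27 to 0.66 and Homer2 from -0.49 to 0.0475. Without WT 1 and GKO 1, Bin1 was at 0.11 and Homer1 at -0.12. Sorl1 was at 6.59e-05 with DESeq2, Bin1 at 0.00260 in the replicate block, and Fermt2 at -0.000754 with library size alone and -0.0354 without possible doublets. The cause of these changes was not tested.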
